A study of Caenorhabditis elegans with 4 samples.

Results

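The X chromosome carried 151 of the 3810 T09A5.8 peaks of replicate 1, 183 of the 4000 of replicate 2, and 810 of the 15063 of the series-level list. These are all the peaks that the 3 deposited lists place on X, on genome build WS220. No score or width filtered them, but X was chosen with earlier results of these data known. Merging peaks of the replicates that shared at least 1 bp gave spans, and a span with a peak of each replicate was called a site. X held 125 such sites out of 3117.

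The ChIP-seq libraries were made from Caenorhabditis elegans fem-2(b245) hermaphrodites at 20 °C, labelled as young adults with a germline, and the growth protocol describes the harvest of gravid adults. Chromatin was precipitated with an affinity-purified rabbit antibody, SDQ4501, raised against T09A5.8. The 2 T09A5.8 ChIP libraries and the 2 input libraries shared this genotype, stage and temperature. The input libraries were not used here, and there was no wild-type or cec-3 mutant sample. The labels do not tie the replicates to separate cultures, and the spread between them may be technical. Each peak has a position and a score from the authors, who do not define it, and read depth is unknown.

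T09A5.8 is CEC-3, a chromodomain protein. Chromodomains bind methylated histone tails, and in this worm methylation of histone H3 lysine 9 lies mostly on the repeat-rich chromosome arms. X is a special case. Hermaphrodites carry a pair of X chromosomes whose genes are dampened by dosage compensation in the soma and largely kept silent in much of the germline. Contacts with the nuclear lamina on X are known mainly for its left end, which also holds the site where the X chromosomes pair in meiosis. On autosomes both arms make such contacts.

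T09A5.8 peaks on X fell into a few crowded stretches and long empty ones. Sites separated by gaps of up to 100 kb were joined, and a run of at least 3 sites was called a block. X had 8 blocks with 87 sites, or 69.6% of its sites (95% Wilson interval 61.1 to 77.0, counting error only), in 9.59% of its length of 17.7 Mb. Blocks 1 and 2, near the left end, held 63 sites and 67.3% of all site bases in 5.89% of the length. The other 6 blocks held 24 sites, and the remaining 38 sites stood alone (12) or in pairs (13). Blocks were drawn around these same sites, so a large share of sites in a small length follows in part from the rule. No autosomal value under the same rule is given here, so whether such crowding is particular to X was not tested.

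Along X, coverage by peaks was low almost everywhere else. Of 36 windows of 500 kb, 2 had a mean over the replicates above 10% of bases, and 18 had a mean under 1%. Replicate 1 had no peak bases in 9 windows and replicate 2 in 5, and those 5 were empty in both. The series-level list had a peak in every window, down to 0.118% of bases. Over the 36 windows the coverage of the replicates had a Spearman rho of 0.977, and their mean and the series-level list a rho of 0.974. These describe windows along 1 chromosome, which share libraries and neighbours.

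**Figure D1:**
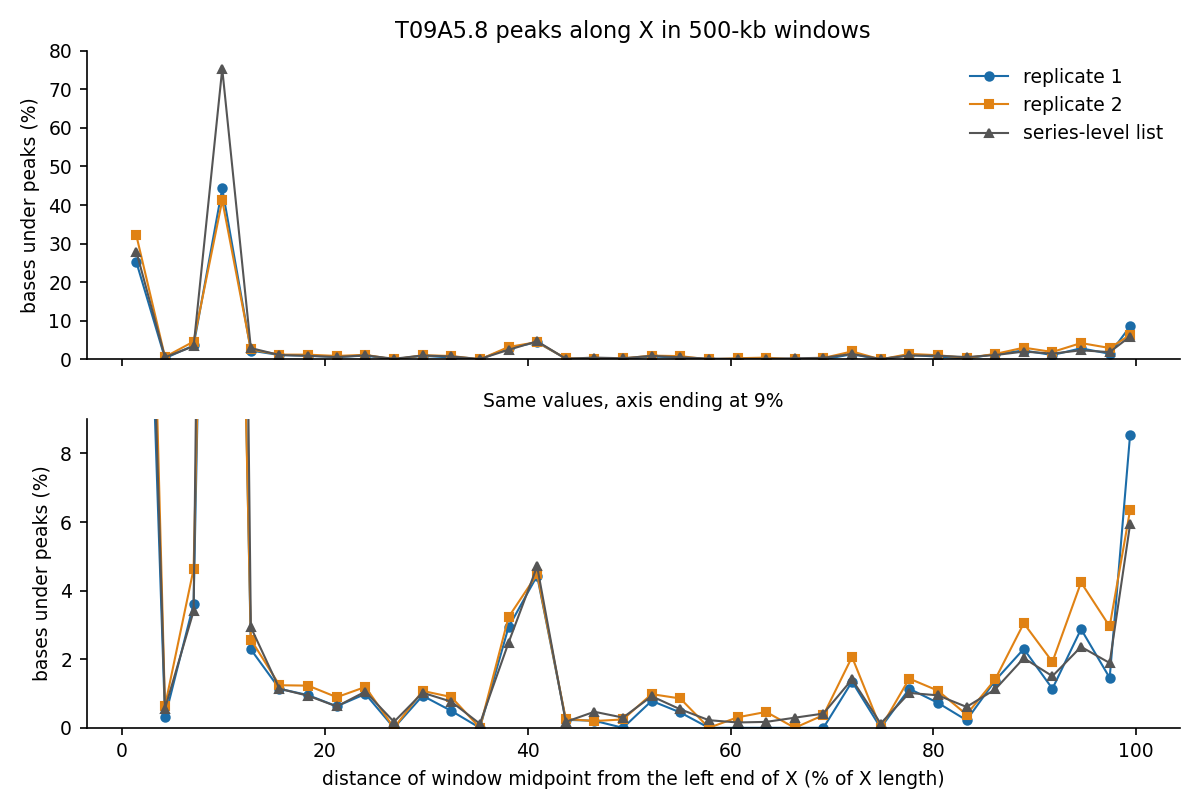
Percent of bases under peaks in 500-kb windows along X for replicate 1, replicate 2 and the series-level list, against the distance of the window midpoint from the left end in percent of X length; the lower panel shows the same values with the axis ending at 9%. Only 2 windows, both at the left, average above 10% in the replicates, and the series-level list alone reaches 75.3% in one of them.

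Block 1 ran from the first base of X to 331360 and held 33 sites, a density of 99.6 sites per Mb. Peaks covered 37.8% of it in replicate 1, 47.8% in replicate 2 and 41.8% in the series-level list, and the mean over replicates was 42.8% ± 7.09 (SD, n = 2). The median gap between its sites was 2979 bp and 13 of its 32 gaps were under 1 kb, while the longest gap was 33478 bp and 45.3% of its bases lay in no list. Coverage was uneven inside. The window from 150001 to 200000 was covered by 67.0% and 71.9% in replicates 1 and 2, and that from 200001 to 250000 by 15.7% and 25.2%.

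In block 1 the replicates overlapped more closely in one direction than in the other. Of the bases of replicate 1 there, 95.2% also lay in replicate 2, and of the bases of replicate 2, 75.2% lay in replicate 1. Series-level peaks had 87.8% of their bases in at least 1 replicate. The highest scores per site had a Spearman rho of 0.50 over the 33 sites, and replicate 2 scored higher at 27 of them. Median peak scores on the autosomes were also higher in replicate 2, at 485 against 360 in replicate 1. These replicate scores have the same range in both lists, but whether they share a scale is not stated.

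The strongest site of block 1 by mean score percentile lay at 7240 to 14595, close to the left end of the chromosome. It scored 3100 in both replicates, a value that many peaks share, and its series-level score of 111 was the highest on X. The widest site, 119060 to 142323, was 23264 bp long. It was 1 peak with a score of 164 in replicate 2 but 3 peaks with a highest score of 2832 in replicate 1. At 282900 to 295744 the order was turned round, with 3100 in replicate 2 and 53.2 in replicate 1, whose peak ended 9903 bp from the end of the other.

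The left end of X was among the densest chromosome ends. Over the 331360 bases of block 1, the X left end ranked number 3 of the 12 ends by mean coverage, with 42.8% ± 7.09 (SD, n = 2). The chromosome III left end had 57.6% ± 1.31, the chromosome I right end 53.5% ± 6.98 and the chromosome I left end 39.9% ± 1.09. The X and chromosome I left ends thus differed by less than the spread between replicates. The X right end over the same length had 4.77% ± 0.992 and ranked 11 of 12, above the chromosome IV right end with 1.38% ± 0.0723. The length was set by the block itself, so the rank is a description and was not tested.

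Between blocks 1 and 2 lay 1020806 bp with almost no peaks. This stretch held 2 sites, or 1.96 per Mb, and 3 peaks of replicate 1 and 5 of replicate 2. Peaks covered 0.345% of it in replicate 1, 0.643% in replicate 2 and 0.584% in the series-level list, which had 20 peaks there with a median score of 4.53 and a highest of 31.1. All 3 lists thus had low coverage between these dense stretches.

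Block 2, from 1352167 to 2064399, was the longest, and of the 8 blocks it had the lowest share of covered bases in all 3 lists, 33.2%. It held 30 sites, 5 of them wider than 10 kb, and 37.9% of all site bases on X. Its total coverage was close between the replicates, at 35.1% in replicate 1 and 33.7% in replicate 2 (34.4% ± 0.986, SD, n = 2). The series-level list covered 56.8%, which was 22.4 percentage points above the replicate mean. In each of the other 7 blocks it covered less than the replicate mean, with differences of -21.2 to -0.968 points.

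Similar totals in the replicates did not mean the same bases. In block 2, 70.1% of the bases of replicate 1 lay in replicate 2 and 73.0% of the bases of replicate 2 lay in replicate 1. Of the series-level bases, 37.2% lay in both replicates and 65.9% in at least 1, against 71.2% and 87.8% in block 1. Where both replicates had a site, however, they ordered the sites alike, with a Spearman rho of 0.90 over the 30 sites and 13 sites scored higher in each replicate.

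**Figure D2:**
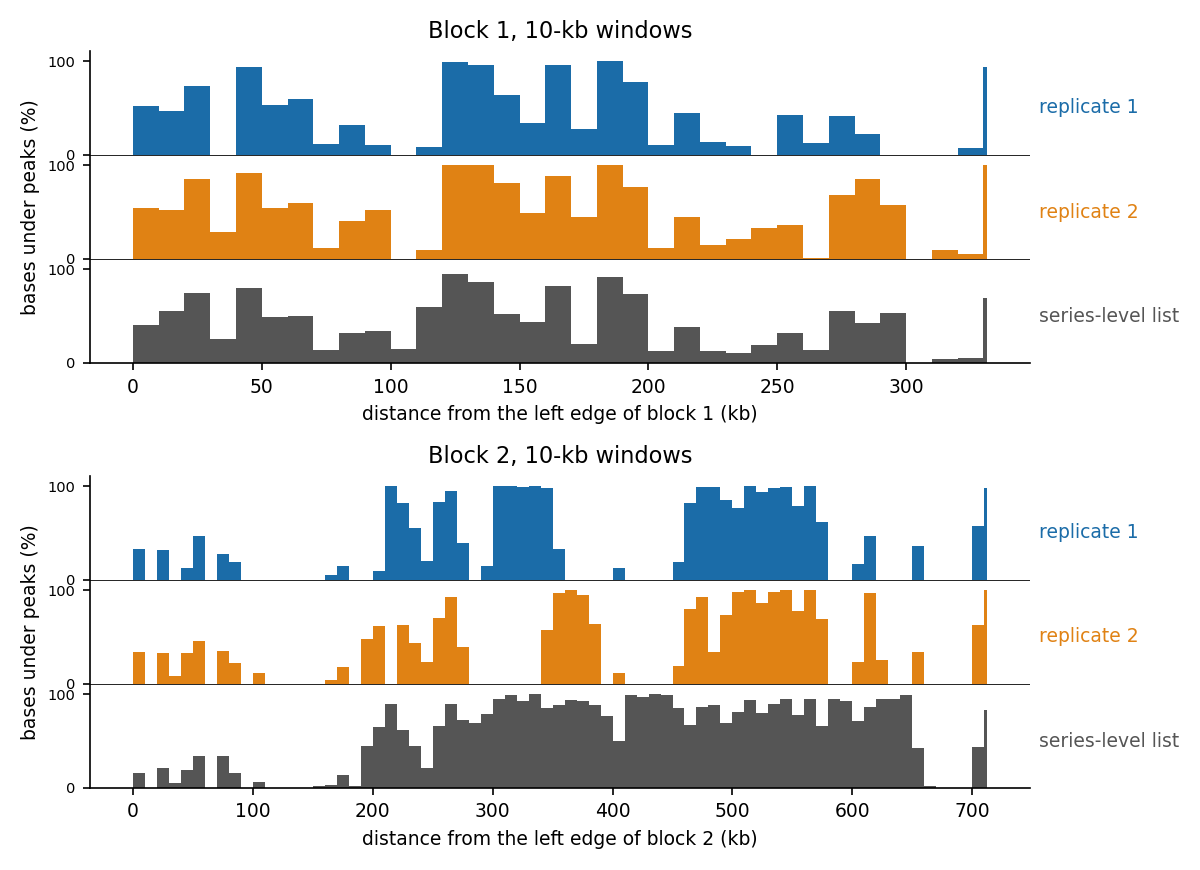
Percent of bases under peaks in 10-kb windows of block 1 and block 2 for replicate 1, replicate 2 and the series-level list, each on its own axis of 0 to 100%, against distance from the left edge of the block (the last window of each is shorter). In block 1 most windows that are filled in one list are filled in the others, although a few have little or no coverage in replicate 1. The one starting at 290001 has 0% in replicate 1, 57.4% in replicate 2 and 53.0% in the series-level list. The one starting at 110001 has 8.52% in replicate 1, 9.41% in replicate 2 and 59.2% in the series-level list. In block 2, from 1602167 to 2002166, the series-level list covers at least 49.8% of every window. The replicates have gaps there, some at different places. Nearer the edges of block 2 some windows are empty in all 3 lists.

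The left part of block 2 was sparse in all lists. Between 1352167 and 1552166, no 50-kb window was covered by more than 18.8% in replicate 1, 21.4% in replicate 2 or 16.9% in the series-level list. The lists differed in its last window, 1502167 to 1552166, with 3.97% in replicate 1, 13.8% in replicate 2 and 13.0% in the series-level list. Dense coverage began in the window from 1552167 to 1602166, with 53.3%, 38.3% and 56.6%. In the series-level list the last dense window was 1952167 to 2002166, with 89.2%. The last site, 2055915 to 2064399, stood apart. It scored 3100 in both replicates and had the highest series-level score of the block's sites, 67.6.

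Within the dense part, neighbouring stretches were called in different lists. From 1626128 to 1696336, replicate 1 covered 64.7% with 2 peaks, and replicate 2 had 0 peaks. The first of those peaks, 1650690 to 1680094, was 29405 bp long with a score of 755, and was the widest peak of either replicate on X. From 1705505 to 1760568 the pattern was the opposite, because replicate 2 covered 58.5% with 3 peaks, scoring 254, 3100 and 2540, and replicate 1 had 0. Both stretches were well covered in the series-level list, by 86.7% and 81.7%. Between them lay a site found in all 3 lists, 1696337 to 1705504, with scores of 3100 in both replicates.

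Other stretches were covered in the series-level list alone. From 1761853 to 1810236, series-level peaks covered 96.3% of 48384 bp and neither replicate had a peak. The 12 series-level peaks there had a median score of 38.4 and a highest score of 69.6, the top score of any series-level peak on X that overlapped neither replicate. From 1931413 to 1958457 the series-level list covered 88.7% with 10 peaks, again with 0 peaks in either replicate. From 1966879 to 2004833 it covered 93.0%, replicate 2 covered 20.4% and replicate 1 had 0 peaks. These stretches, the gaps between neighbouring sites, were chosen after their values were seen.

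In the core of block 2, drawn from the start of a site to the end of another, all 3 lists had high coverage. Each site holds a peak of both replicates, so this follows in part from the choice of edges. From 1810237 to 1926895, peaks covered 92.3% of 116659 bp in replicate 1, 85.7% in replicate 2 and 84.0% in the series-level list, and 1.17% lay in series-level peaks alone. An exception was a replicate 1 peak of 6680 bp at 1835776 to 1842455 that overlapped no replicate 2 peak. This core held the widest X site, 1881819 to 1906656, with 24838 bp and scores of 2843 and 3100 in replicates 1 and 2. It was made of 2 peaks in replicate 1, 4 in replicate 2 and 11 in the series-level list. The best-ranked X site, 1821783 to 1829433, lay there too, scoring 3100 and 3208, and its right neighbour at 1829441 to 1835653 scored 3100 in both. Only 7 bp separated these neighbours.

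Of the series-level peaks on X that overlapped neither replicate, those with high scores lay largely in block 2. X had 266 such peaks, 85 in block 2, 43 in block 1 and 138 elsewhere. Their median score was 11.1 in block 2, 4.69 in block 1 and 4.97 elsewhere. Of the 43 that were in the top 25% of the whole series-level list by score, 39 were in block 2 and 1 in block 1. Mappability, copy number and input reads were not examined, and their part in these stretches was not tested.

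After block 2 came 3157925 bp with scattered sites and then 2 small blocks in the left and central part of X. Block 3, from 5222325 to 5285985, had 3 sites of 1629 to 2116 bp, and each was a single peak in each replicate. Its first site by score, 5222325 to 5224017, scored 277 and 642, and its widest, 5283870 to 5285985, scored 232 and 547. Block 4, from 6735882 to 6749700, packed 4 sites into 13819 bp, so that peaks covered 66.0% of it in replicate 1, 75.01% in replicate 2 and 49.3% in the series-level list. Its strongest and widest site, 6738152 to 6742634, scored 666 and 1534. All the replicate peaks of both blocks, 7 in each replicate, were shared between the replicates.

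No further block was found for 8884979 bp, the longest interval between blocks. That interval was not empty, since it held a site of 15849 bp at 7350171 to 7366019. This site, the only one wider than 10 kb outside blocks 1 and 2, was 1 peak in each replicate with scores of 2516 and 3100. Yet the middle of X had the longest gap between sites, 2.89 Mb from 9627268 to 12521129, in which replicate 1 had 0 peaks, replicate 2 had 4 and the series-level list had 16. The longest stretch with no peak in any list was 733778 bp, from 9627268 to 10361045.

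Blocks 5 to 8 lay in the right part of X. Block 5, from 15634680 to 15923536, had 6 sites over 288857 bp and coverage of 3.98% in replicate 1, 4.59% in replicate 2 and 3.08% in the series-level list. Its strongest and widest site, 15806751 to 15811684, scored 3100 in both replicates, the only site right of block 2 to do so. Block 6, from 16497668 to 16523060, had 3 sites, and replicate 2 had 5 peaks where replicate 1 had 3, covering 27.4% and 15.0%. Its first site, 16497668 to 16499136, scored 794 and 2261 in replicates 1 and 2, and its widest, 16516517 to 16518741, scored 147 and 377.

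Block 7, from 17218099 to 17312290, was the only small block in which replicate 1 had more peaks than replicate 2, 4 against 3. Its strongest and widest site, 17309388 to 17312290, scored 925 and 3100. Block 8, from 17524567 to 17693088, ended 19261 bp before the last peak end on X and had 5 peaks in each replicate, all shared. Peaks covered 8.18% of it in replicate 1, 7.997% in replicate 2 and 6.30% in the series-level list. Its strongest and widest site, 17604903 to 17610264, scored 2553 and 3100. The right end of X thus had occupied sites in all lists, but at a small part of the density of the left end.

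**Figure D3:**
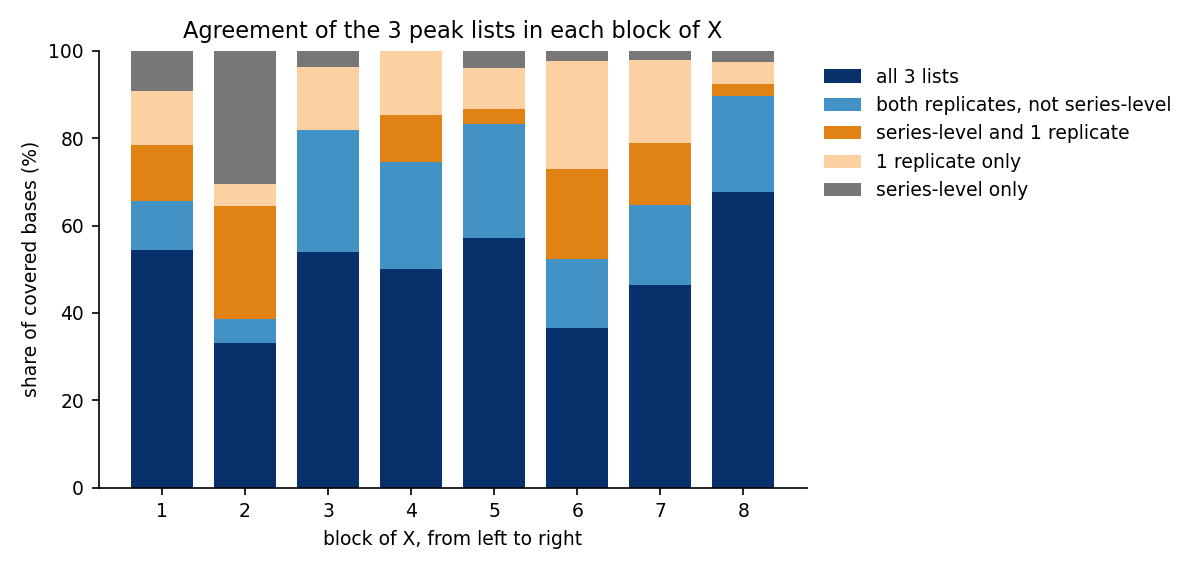
Share of the covered bases of each block that lie in all 3 lists, in both replicates only, in the series-level list and 1 replicate, in 1 replicate only, or in the series-level list only, with blocks in order from left to right. Block 2 has the lowest share in all 3 lists of the 8 blocks, 33.2%, and the largest share in the series-level list only, 30.4%, against 36.5% to 67.6% and 0% to 9.32% in the other blocks.

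Counted over peaks, the agreement of the replicates on X was one-sided. Of the replicate 1 peaks on X, 92.1% (139 of 151, 95% Wilson interval 86.6 to 95.4) overlapped replicate 2, close to the 90.8% over all chromosomes. Of the replicate 2 peaks on X, 73.8% (135 of 183, 67.0 to 79.6) overlapped replicate 1, against 83.8% over all chromosomes. That share was lower on X than on each autosome, where it ran from 78.9% on chromosome II to 86.1% on chromosome III. It did not rest on block 2, without which it was 72.0%. Neighbouring peaks are not independent, so the intervals are too narrow, and the difference was not tested.

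The unshared peaks of X varied in width, and the widest lay in block 2. There were 12 in replicate 1 and 48 in replicate 2. Those over 5 kb wide numbered 4 in replicate 1 and 5 in replicate 2, and all 9 lay in block 2. The widest elsewhere was 4644 bp and the narrowest of the 9 was 5185 bp, so the cut did not part 2 distinct kinds. Among unshared peaks, 15.0% on X (9 of 60) and 4.16% on the autosomes (39 of 938) were over 5 kb, a comparison chosen after the values were seen. The other kind was narrow and weak, as in the 24 unshared replicate 2 peaks right of block 2. Unshared X peaks had median scores of 111 in replicate 1 and 170 in replicate 2, and shared X peaks had 277 and 561. The autosomes had the same order, with 85.85 and 103.8 for unshared peaks and 432 and 663 for shared ones.

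Nearly all of these unshared peaks were in the series-level list, with 12 of 12 for replicate 1 and 47 of 48 for replicate 2. The same held on the autosomes, with 330 of 337 unshared peaks of replicate 1 and 590 of 601 of replicate 2. Over all X peaks, 150 of 151 in replicate 1 and 181 of 183 in replicate 2 overlapped a series-level peak, near the 99.7% and 99.5% over all chromosomes. In the other direction, 43.8% of the series-level peaks on X (355 of 810, 40.4 to 47.3) overlapped both replicates, and the share over all chromosomes was 53.8%. A further 32.8% (266 of 810, 29.7 to 36.1) overlapped neither, against 26.8% over all chromosomes. The share in neither was 29.5% in block 2, 21.3% in block 1 and 49.6% outside the blocks. Blocks were built from sites with a peak of each replicate, so a lower share in neither inside them follows in part from that rule. On X, the series-level peaks without a replicate peak that were long and high in score lay largely in block 2, where series-level scores were higher in general.

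By bases, X had the lowest agreement of the 6 chromosomes in each direction. On X, 82.1% of replicate 1 bases lay in replicate 2 and 72.4% of replicate 2 bases lay in replicate 1. The autosomes ran from 87.0% to 93.0% and from 81.7% to 88.7%. Without block 2 the first value on X was 92.9%, inside the range of the autosomes, and the second was 72.1%, still below it. Of the series-level bases, 73.0% on X were in at least 1 replicate, and 77.7% on chromosome V to 90.0% on chromosome IV. Without block 2 the share on X was 82.2%, inside that range. Block 2 had low agreement and was left out after the data were seen, while nothing was left out of the autosomes. The 2 rises on X thus follow in part from that choice.

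Most X sites were nevertheless simple and well aligned. In 111 of the 125 (88.8%), each replicate had exactly 1 peak, near the 85.6% of autosomal sites. The left edges of the replicates differed by a median of 111 bp on X and 85 bp on the autosomes, and the right edges by 93 bp and 89 bp. A median of 2 series-level peaks fell in a site both on X and on the autosomes, and they covered a median of 66.9% of an X site and 71.4% of an autosomal one. Only 1 X site had no series-level peak.

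Scores of the X sites were related between replicates but less tightly than on the autosomes. The Spearman rho was 0.78 over 125 X sites and ran from 0.86 to 0.91 on single autosomes. It was 0.50 in block 1 (33 sites), 0.90 in block 2 (30 sites), 0.81 in blocks 3 to 8 (24 sites) and 0.85 outside the blocks (38 sites). Replicate 2 scored higher at 95 X sites, replicate 1 at 24, and 6 were equal. This direction was not particular to X, since the median peak score on the autosomes was 360 in replicate 1 and 485 in replicate 2. The matching count of autosomal sites is not given here. Sites at a score of 3100 or more in both replicates made up 5.6% of X sites (7 of 125) and 13.4% of autosomal ones, with 13.1% over all chromosomes. Of those 7, 5 were in block 2, 1 in block 1 and 1 in block 5.

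**Figure D4:**
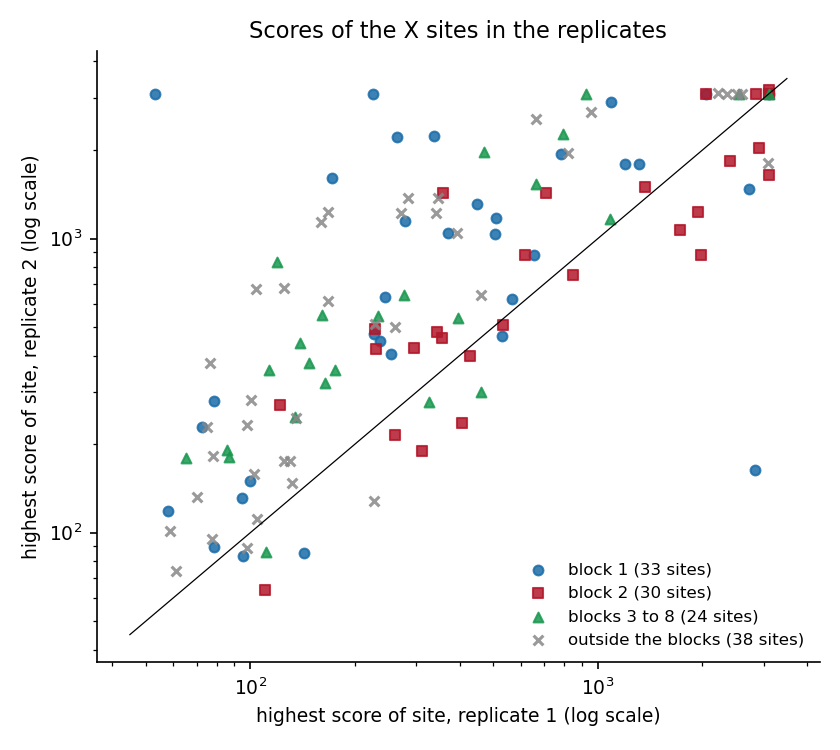
Highest score of each X site in replicate 1 and replicate 2, both on log scales, with the line of equal scores; markers separate block 1, block 2, blocks 3 to 8 and the sites outside the blocks. Block 2 sites lie along the line, while 27 of the 33 sites of block 1 and 35 of the 38 sites outside the blocks lie above it.

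Peaks on X were also narrower and lower in their lists than autosomal peaks. The median width was 1732 bp in replicate 1 and 1760 bp in replicate 2 on X, against 2029 bp and 2031 bp on the autosomes, a difference larger than the spread between replicates. Chromosome II came closest with 1911 bp and 1867 bp. The median X peak stood at the 41.9th percentile of scores in replicate 1 and at the 44.7th in replicate 2. Chromosome II was again close, at 44.9 and 43.8, so that in replicate 2 it was lower than X. Series-level peaks on X had a median width of 382 bp and a median score of 7.49, and autosomal ones 380 bp and 7.03, so this list did not show the difference. Sites wider than 10 kb were about as common on X, at 7.20% (9 of 125), as over all chromosomes, at 7.64%.

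Right of block 2, X was sparser than the centre of any autosome. These 15.6 Mb, or all of X beyond 2064399, held 60 sites, 3.83 per Mb. The middle of 3 equal parts of each autosome held 54 to 74 sites, 9.75 per Mb on chromosome V to 16.1 on chromosome III. In peaks, X averaged 4.79 ± 0.813 per Mb, and the autosome centres averaged 11.4 ± 0.507 on chromosome V to 18.3 ± 0.616 on chromosome III (SD, n = 2). The gap exceeded the spread between replicates. The boundary was set by block 2, so no test was made.

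The sites of this sparse part of X were smaller and weaker as well as fewer. Their median width was 1769 bp, against 2200 to 2666 bp in the autosome centres. A single one of the 60 (1.67%) scored 3100 or more in both replicates, against 11.1% to 23.2% in the centres. The median peak there stood at the 28.7th percentile in replicate 1 and the 38.8th in replicate 2, and in the centres at 42.7 to 54.1 and at 49.5 to 58.0. The strongest of these sites by mean percentile were 15806751 to 15811684 in block 5, 3074948 to 3078259, which stood in a pair and scored 2597 and 3100, and 17604903 to 17610264 in block 8. The rest of the 10 best-ranked X sites were 7240 to 14595 in block 1 and 6 in block 2, of which 1619863 to 1626127 was not yet named and scored 3100 in both replicates.

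**Figure D5:**
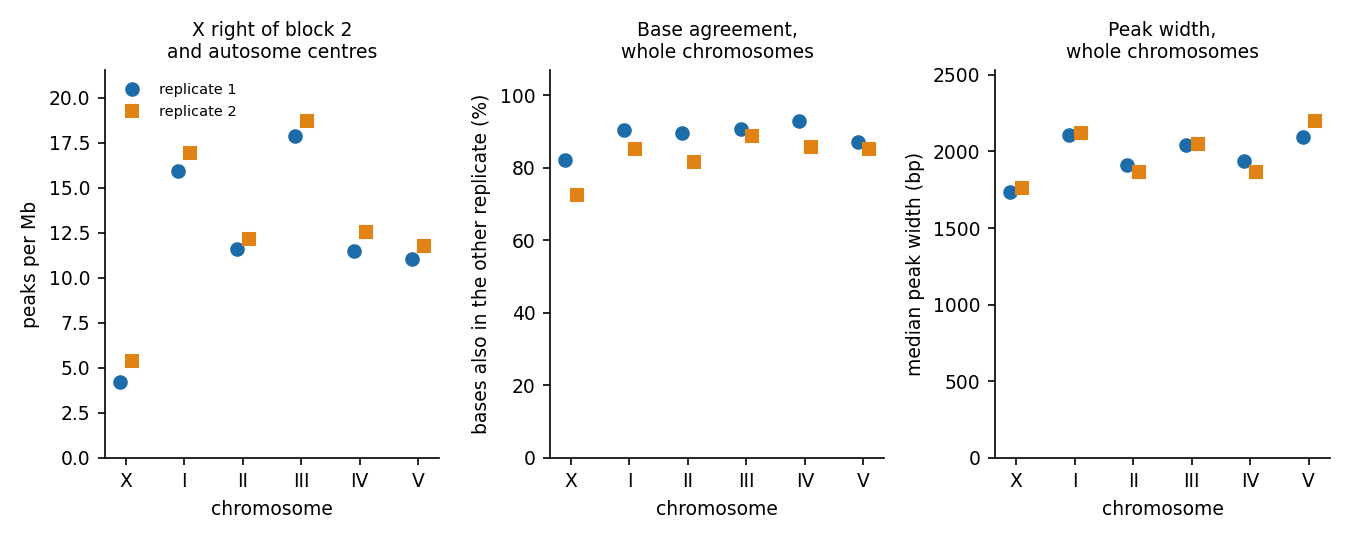
Peaks per Mb on X right of block 2 and in the centre of each autosome (left), percent of the peak bases of a replicate that lie in peaks of the other over whole chromosomes (middle), and median peak width over whole chromosomes (right), with X first and then the 5 autosomes; points are the 2 replicates. For each replicate, X has the lowest point in all 3 panels.

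Peak lists limit all of this, since they show where enrichment passed a threshold, not how much protein was bound, and a wide domain can be cut into pieces or missed. Genes and sequences under the blocks were not used here, as coordinates were not carried over from WS220 to another build.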

How the data were processed

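Chromatin immunoprecipitated with an antibody against T09A5.8 was sequenced in 2 ChIP libraries. Per the file headers, the deposited peaks are on WormBase build WS220, and the source column names MACS for the replicate lists and MACS v2 for the series-level list. The sources used here do not give the aligner, thresholds, pooling or any use of the input libraries. The score of each peak is as the authors deposited it, with no definition, so scores were used within a list and as percentiles. Between the replicates, whose shared scale is not stated, they were compared by rank correlation and by which was higher. Samples were grouped by title.

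Peaks on X were taken by chromosome name. Overlap meant at least 1 bp. The length of a chromosome was its largest peak end in any list. Blocks joined sites across gaps of up to 100 kb and needed at least 3 sites. As each site holds a peak of both replicates, this rule favours shared peaks inside blocks. Named sites were the 10 with the highest mean score percentile on X, and in each block the first by that order and the widest. The X peaks, this rule, the blocks and all lists were chosen with earlier results of these data known. All comparisons are descriptions, with the SD over 2 replicates, or Wilson 95% intervals that cover counting error only. Read depth is unknown.

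Alternatives were other block gaps (25, 50 and 200 kb), 2 or 5 sites per block, an overlap of 50% of the shorter peak, only the higher-scoring peaks (over the list median), sites built from a single replicate or from series-level peaks, the leftmost of 4 equal parts, and pairs of peaks. Leaving out block 2 was added after the data were seen. The interval functions recovered every block, site, overlap and covered length in 50 simulated chromosomes. Python 3.11.15, numpy 2.4.6, pandas 2.3.3, scipy 1.17.1 and matplotlib 3.10.9 were used.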

Additional observations from a re-analysis of the deposited data

How the results depend on the processing

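Blocks 1 and 2 were found again, whole or in part, under all 10 alternatives for blocks, and each of the smaller blocks under 6 to 8. Gaps of up to 25 and 50 kb gave 7 and 6 blocks, all of them in 4 of the 8, so some blocks were split. The longest gap between sites in block 2 was 84935 bp, so it stayed whole only with gaps of up to 100 kb or more. Blocks numbered 8, against 21 with at least 2 sites, 4 with at least 5, 4 above the median score and 24 in the series-level list, and single replicates gave 10 to 11. The share of X sites in blocks, 69.6%, was 49.6%, 54.4% and 81.6% with gaps of up to 25, 50 and 200 kb, 90.4% and 59.2% with at least 2 and 5 sites, 85.8% in the series-level list and 75.5% to 77.6% in single replicates. X sites, 125, fell to 49 above the median score, and the series-level list gave 332, while single replicates gave 151 to 183. Their median width, 2342 bp, was 4819 bp above the median score, 572 bp in the series-level list and 1732 to 1760 bp in single replicates, where peaks are not merged. The share of X sites in the left of 3 equal parts, 61.6%, was 71.4% above the median score, 62.8% to 65.6% in single replicates, 57.6% in the leftmost of 4 equal parts and 54.5% in the series-level list. The same score filter lowered the share of replicate 1 peaks found in replicate 2 from 92.1% to 83.3%, that of replicate 2 peaks from 73.8% to 63.8%, that of series-level peaks found in both from 43.8% to 31.3%, and the rho of scores from 0.78 to 0.69. The filter also removes peaks that others could overlap. Series-level peaks were found in single replicates at 50.5% to 60.5%. The rho was 0.54 over pairs of peaks. Of the 47 values recomputed under these settings, 22 stayed within their spread or interval (0.05 for the rho, 1.5 times for counts). Without block 2 the shares of peaks were 93.6%, 72.0% and 43.7% and the rho 0.76, while by bases the share of replicate 1 in replicate 2 was 92.9%, against 82.1% with it, and that of the series-level list in either replicate 82.2%, against 73.0%. No paired analysis was possible because no test compares the ChIP libraries with the input libraries, which share their replicate numbers. Depth is unknown, so the effect of read number on the weak unshared peaks was not tested.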
